A study of Arabidopsis thaliana with 18 samples.

Results

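Light signaling in leaves was followed through 10 Arabidopsis thaliana genes, chosen by their locus identifiers from the 33602 loci counted in the study: the phytochromes PHYA (AT1G09570) and PHYB (AT2G18790), the phytochrome-interacting factors PIF3 (AT1G09530), PIF4 (AT2G43010), PIF5 (AT3G59060) and PIF7 (AT5G61270), the atypical bHLH genes HFR1 (AT1G02340) and PIL1 (AT2G46970), and the bZIP genes HY5 (AT5G11260) and HYH (AT3G17609). RNA sequencing covered leaf 5, cut into a margin and a center piece, in 3 genotypes with 3 libraries for each of 6 groups. The groups were 4KO margin and 4KO center (tcp2-tcp3-tcp4-tcp10 mutant), 2KO margin and 2KO center (tcp2-tcp4 mutant), and Col0 margin and Col0 center (the wild type). TCP2, TCP3, TCP4 and TCP10 encode transcription factors whose mRNAs are targets of the microRNA miR319, and the study asked how they act in different regions of the leaf. Both mutant lines share the loss of TCP2 and TCP4, and the labels name no alleles. Plants of every group were kept under long days (16 h light, 8 h dark) at 23 °C, and leaf 5 was taken and cut by hand on a cold plate when leaf 7 emerged, 6 h after lights on. Each library pooled the pieces of 15 to 20 plants. 4KO plants entered the greenhouse first and Col0 plants last, with 2 days between lines, so the age of the plants is bound to their genotype, and these cannot be told apart.

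Phytochromes are receptors for red and far-red light: active PHYB enters the nucleus and drives the degradation of several PIF proteins. PIF proteins are bHLH transcription factors that bind G-box sequences and promote elongation, shade responses and auxin synthesis. HFR1 and PIL1 are atypical bHLH proteins, induced in shade, that act as brakes on PIF activity. HY5 and its close relative HYH are bZIP factors that promote light-dependent greening and pigment synthesis, and in darkness the COP1 and SPA ubiquitin ligase removes them. Much of this regulation acts on protein, which RNA counts do not show.

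In the 4KO margin the transcripts of the 3 growth-promoting factors PIF4, PIF5 and PIF7 were below those of the Col0 margin in every library, and HY5 transcripts were above. The 2KO margin lay in between for the 3 PIF genes. In the center pieces PIF4 did not pass the test against Col0, PIF7 fell in 4KO, and PHYA was higher in 4KO. PHYB, PIF3 and HYH passed no test in the 11 comparisons made.

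The stretches of 250 bases before the annotated starts of 5 genes are shown. They are PIF4, PIF5 and PIF7, which fell in mutant margins, HY5, which rose in the 4KO margin, and PHYB, the receptor that passed no test. PHYA, which passed tests in 4KO, is not shown, and its window held none of the motifs marked in capitals. The sequences are those of the RefSeq TAIR10.1 assembly, read 5′ to 3′ on the strand of the gene. They span chr2:17885851-17886100 (+) for PIF4, chr3:21830838-21831087 (−) for PIF5, chr5:24640766-24641015 (−) for PIF7, chr5:3595074-3595323 (−) for HY5 and chr2:8139506-8139755 (+) for PHYB. Capitals mark the G-box CACGTG, the related CACATG or CATGTG to which PIF proteins also bind, and GGNCCC or GGGNCC, a core that TCP proteins bind.
PIF4: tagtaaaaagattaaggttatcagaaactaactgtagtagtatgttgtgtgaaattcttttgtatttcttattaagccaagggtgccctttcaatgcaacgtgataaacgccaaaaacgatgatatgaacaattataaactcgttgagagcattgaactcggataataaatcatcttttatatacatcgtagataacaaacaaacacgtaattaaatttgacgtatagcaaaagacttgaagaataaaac
PIF5: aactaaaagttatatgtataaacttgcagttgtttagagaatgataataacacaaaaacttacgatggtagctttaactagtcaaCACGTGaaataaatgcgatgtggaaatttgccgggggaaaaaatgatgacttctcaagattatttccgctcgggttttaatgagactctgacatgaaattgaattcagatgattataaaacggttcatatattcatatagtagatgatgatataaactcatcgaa
PIF7: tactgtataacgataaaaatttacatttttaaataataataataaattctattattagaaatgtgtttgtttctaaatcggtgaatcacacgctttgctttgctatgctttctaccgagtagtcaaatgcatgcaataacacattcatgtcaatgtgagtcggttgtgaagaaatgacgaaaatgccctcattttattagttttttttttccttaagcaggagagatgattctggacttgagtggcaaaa
HY5: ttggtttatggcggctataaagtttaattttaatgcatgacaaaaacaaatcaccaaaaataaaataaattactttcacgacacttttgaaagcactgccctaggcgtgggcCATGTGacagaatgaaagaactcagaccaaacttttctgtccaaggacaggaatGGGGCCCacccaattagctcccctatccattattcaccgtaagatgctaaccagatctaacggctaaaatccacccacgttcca
PHYB: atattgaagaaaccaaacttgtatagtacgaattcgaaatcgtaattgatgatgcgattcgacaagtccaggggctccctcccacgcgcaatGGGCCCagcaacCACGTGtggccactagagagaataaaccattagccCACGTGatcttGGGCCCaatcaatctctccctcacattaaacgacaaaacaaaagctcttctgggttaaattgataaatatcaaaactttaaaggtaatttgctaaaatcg

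Both strands were searched in windows of this length before 27443 protein-coding genes. CACGTG was in 6.49% of all windows and in 2 of the 10 genes here, 165 to 160 bases upstream in PIF5 and at 146 to 141 and 111 to 106 bases in PHYB. GGNCCC, which on the other strand reads GGGNCC, was in 7.35% of windows and in PHYB and HY5. In PHYB it flanked the G-box copies, at 158 to 153 and 100 to 95 bases, and in HY5 the letters GGGGCC and GGGCCC overlapped at 84 to 78 bases. CACATG was in 11.1% of windows, and its reverse complement CATGTG was in HY5, at 138 to 133 bases. The shorter ACGT, which lies inside CACGTG and is the core read by HY5, was in 44.1% of windows and in 7 of the 10 genes, but not in PIF7. The windows of PIF4 and PIF7 held none of the 3 motifs marked in capitals. These are matches of letters, and binding was not measured.

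Reads counted in genes were 5932877 to 12018414 per library, of which the 10 genes together took 1729 to 4134. Reads mapped to several places were 3.71% to 4.97% of the total in 16 libraries, but 16.0% in 2KO margin 3 and 8.60% in Col0 margin 1. Leaving out these libraries together ended 1 of 24 calls on the 10 genes, named below. TCP2 and TCP4 stood at 11.3% to 24.8% of the Col0 level in 4KO pieces and at 12.7% to 19.0% in 2KO pieces. TCP3 and TCP10 stood at 8.11% to 20.2% in 4KO pieces, against 99.8% or more in 2KO pieces. Flower markers (AP3, PI and AG) summed to at most 2.24 CPM in any library and root hair markers (COBL9 and EXPA7) to at most 0.344 CPM, where CPM is the usual depth-scaled read count, with library sizes scaled by TMM. Of the 10 genes, 8 were among the 17763 loci with enough reads to test. HFR1 and PIL1 were not.

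**Figure D1:**
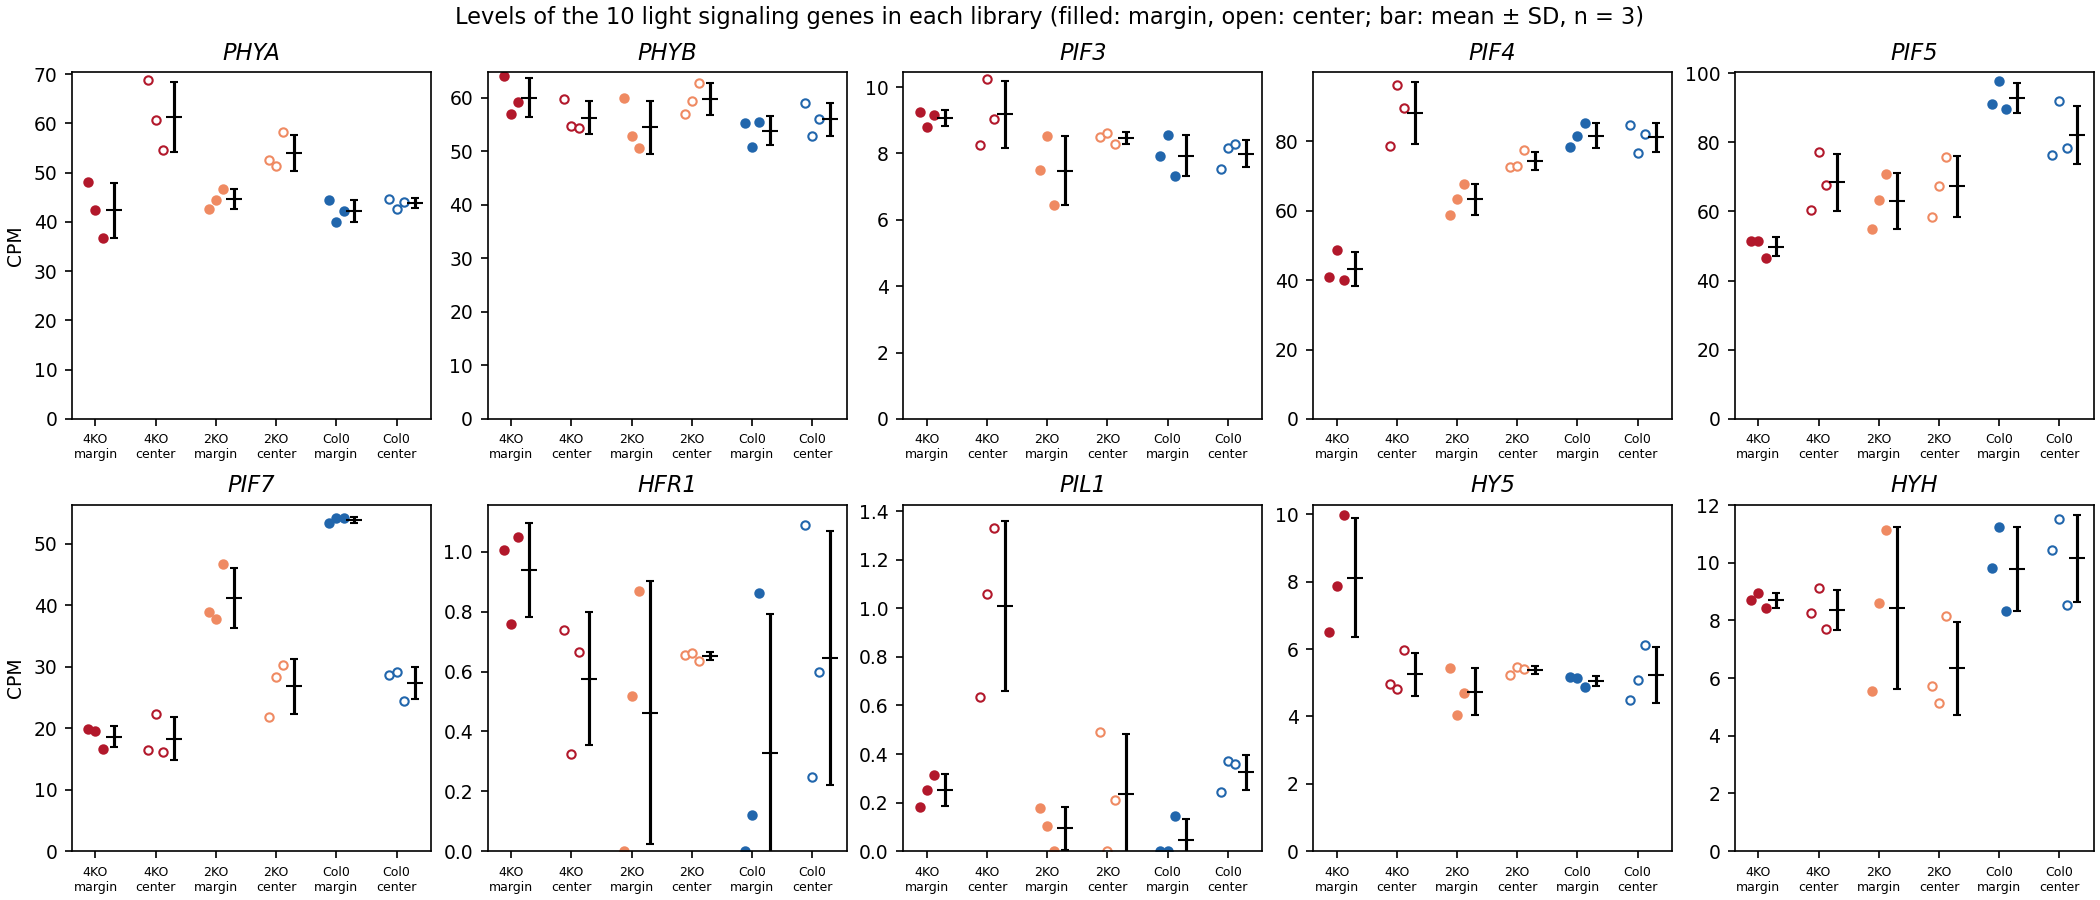
CPM of the 10 genes in each library (y axis, linear from 0; points are libraries, filled for margin and open for center, and black bars are the mean ± SD of 3 libraries, cut at 0 for HFR1 and PIL1) in 4KO, 2KO and Col0 margin and center (x axis). PIF4 is lowest in the 4KO margin (40.0 to 48.8 CPM), PIF7 is highest in the Col0 margin (53.3 to 54.2 CPM), and HY5 is highest in the 4KO margin (6.50 to 9.99 CPM).

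Per kilobase of coding length, the 3 PIF genes were the most abundant of the 10 in the Col0 margin. PIF5 stood at 69.5 ± 3.25, PIF4 at 57.6 ± 2.52 and PIF7 at 48.9 ± 0.445 CPM per kb (SD, n = 3). HYH followed at 21.8 ± 3.23, PHYB at 15.3 ± 0.753, PHYA at 12.5 ± 0.639, HY5 at 9.31 ± 0.283 and PIF3 at 5.03 ± 0.390 CPM per kb. HFR1 (0.373 ± 0.530) and PIL1 (0.0382 ± 0.0662) were near 0. In the 4KO margin the order differed: PIF5 (37.3 ± 2.11) and PIF4 (30.5 ± 3.43) still led, whereas PIF7 (16.9 ± 1.60) lay beside PHYB (17.1 ± 1.03), HYH (19.3 ± 0.603) and HY5 (14.9 ± 3.24 CPM per kb). The place of HY5 depended on the length used. Per kilobase of exon length HY5 (6.46 ± 1.40) lay below PIF7 (9.54 ± 0.900), HYH (11.2 ± 0.350) and PHYB (13.3 ± 0.802) in the 4KO margin.

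PHYA, the labile phytochrome that senses far-red light, had 68.8, 60.6 and 54.5 CPM in the 4KO center, 52.5, 51.4 and 58.2 CPM in the 2KO center, and 44.6, 42.6 and 44.1 CPM in the Col0 center. All 6 mutant center libraries lay above the 3 Col0 center libraries, and those of 4KO and 2KO overlapped. The log2 fold change was 0.49 ± 0.090 (SE) for 4KO against Col0 (adjusted p = 0.000342; edgeR quasi-likelihood test with Benjamini-Hochberg adjustment over all 17763 loci, 2-sided, as for every adjusted p below). For 2KO against Col0 it was 0.31 ± 0.092, with an adjusted p of 0.0516, and for 4KO against 2KO it was 0.18 ± 0.089 (adjusted p = 0.252). The 2KO value passed with no filter on low counts (adjusted p = 0.036), with only the libraries compared (0.0396) and with the replicate number as a block (0.0463).

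In the margin PHYA had 48.0, 42.3 and 36.7 CPM in 4KO, 42.6, 44.4 and 46.7 CPM in 2KO, and 44.4, 40.1 and 42.2 CPM in Col0. The 3 groups overlapped, and the differences were 0.01 for 4KO against Col0, 0.08 for 2KO against Col0 and −0.07 for 4KO against 2KO, none of them past the test. Within 4KO the margin had less PHYA than the center, by a log2 fold change of −0.53 ± 0.088 (adjusted p = 0.000126), while in Col0 the difference was −0.06 ± 0.095 (adjusted p = 0.778). In 2KO it was −0.29 ± 0.092 (adjusted p = 0.0634), and it passed once the pool that both pieces came from was blocked (−0.28, adjusted p = 0.0014). The margin minus center difference of 4KO was more negative than that of Col0 by −0.48 ± 0.13 (adjusted p = 0.0138).

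PHYB, the stable phytochrome that dominates red light and shade responses, varied little. Its group means lay between 60.0 ± 3.63 CPM in the 4KO margin and 53.9 ± 2.65 CPM in the Col0 margin (SD, n = 3). That widest difference had a log2 value of 0.16 with a 95% interval of 0.00414 to 0.31, and an adjusted p of 0.0904, although the 3 libraries of the 4KO margin lay above those of the Col0 margin. In the center the 4KO against Col0 difference was 0.01, with an interval of −0.15 to 0.16. Over all 9 comparisons between 2 groups the log2 fold change of PHYB lay between −0.13 and 0.16.

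Among the PIF genes, PIF4 encodes a factor that drives elongation in shade and warmth. It had 40.9, 48.8 and 40.0 CPM in the 4KO margin, 58.8, 63.4 and 67.8 CPM in the 2KO margin, and 78.3, 81.5 and 85.4 CPM in the Col0 margin. The 3 groups did not overlap: 4KO was lowest and Col0 highest. The log2 fold change was −0.92 ± 0.084 for 4KO against Col0 (adjusted p = 2.29e-08), −0.37 ± 0.083 for 2KO against Col0 (adjusted p = 0.00423) and −0.54 ± 0.084 for 4KO against 2KO (adjusted p = 6.33e-05).

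In the center PIF4 had 78.6, 96.2 and 89.6 CPM in 4KO, 72.7, 73.1 and 77.5 CPM in 2KO, and 84.8, 76.7 and 82.3 CPM in Col0. Both mutants overlapped Col0 there, and the adjusted p was 0.285 for 4KO and 0.412 for 2KO. The 3 libraries of the 4KO center lay above those of the 2KO center, by 0.24 ± 0.082 (adjusted p = 0.0722), which passed without 4KO center 1 (0.32, adjusted p = 0.0297). Within 4KO the margin had less PIF4 than the center, with a log2 fold change of −1.03 ± 0.083 (adjusted p = 1.5e-08). Margin and center libraries of the same number were taken as pieces of 1 leaf pool, since their deviations correlated. The log2 ratio of margin to center in the 3 leaf pools was −0.94, −0.98 and −1.17 in 4KO, −0.30, −0.20 and −0.19 in 2KO, and −0.12, 0.09 and 0.05 in Col0. All 3 pools of 4KO and of 2KO were below 0, and those of Col0 lay on both sides. For 2KO the fold change of −0.24 ± 0.084 did not pass the test without the pools (adjusted p = 0.0898) and it passed once the pool was blocked (−0.23, adjusted p = 0.00292).

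PIF5, which RefSeq names PIL6 and which acts with PIF4 in elongation and leaf senescence, had 51.6, 51.4 and 46.6 CPM in the 4KO margin, 54.8, 63.3 and 70.9 CPM in the 2KO margin, and 91.0, 97.7 and 89.6 CPM in the Col0 margin. Again the groups did not overlap, and both mutants were lower than Col0. The log2 fold change was −0.90 ± 0.10 for 4KO (adjusted p = 6.21e-07) and −0.57 ± 0.11 for 2KO (adjusted p = 0.000975). Between the mutants it was −0.33 ± 0.11 (adjusted p = 0.0272). This last call was lost without 4KO margin 3, 2KO margin 2 or 2KO margin 3 (adjusted p = 0.0717 to 0.134), and without 2KO margin 3 and Col0 margin 1 together (0.143).

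In the center PIF5 had 60.5, 77.1 and 67.5 CPM in 4KO, 58.4, 67.4 and 75.8 CPM in 2KO, and 76.4, 91.9 and 78.3 CPM in Col0. The mutants were lower on average, but neither difference passed the test (−0.26 ± 0.10 for 4KO, adjusted p = 0.06, and −0.28 ± 0.11 for 2KO, adjusted p = 0.117). The 4KO value passed with upper quartile scaling (−0.28, adjusted p = 0.0379), with only the libraries compared (−0.26, 0.043), with the replicate number as a block (−0.26, 0.0279) and without 4KO center 2 (−0.36, 0.0212), and the 2KO value passed without 2KO center 3 (−0.39, 0.0498). Between the mutants the center value was 0.02 ± 0.11 (adjusted p = 0.946), and between margin and center of 2KO it was −0.11 ± 0.11 (adjusted p = 0.617). Within 4KO the margin was below the center, by −0.46 ± 0.10 (adjusted p = 0.00263). In Col0 the margin stood above the center in all 3 leaf pools, with log2 ratios of 0.25, 0.09 and 0.19, and this passed the test with the pool as a block (0.17, adjusted p = 0.0207) and not without it (0.18 ± 0.10, adjusted p = 0.314).

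PIF7 encodes the factor that is activated within minutes of shade and raises auxin synthesis. It had 19.8, 19.5 and 16.6 CPM in the 4KO margin, 38.9, 37.7 and 46.7 CPM in the 2KO margin, and 53.3, 54.2 and 54.1 CPM in the Col0 margin. The 3 margin groups did not overlap, and 4KO was lowest. The log2 fold change was −1.53 ± 0.12 for 4KO against Col0 (adjusted p = 2.89e-09), the widest among the 8 genes tested, and −1.12 ± 0.12 for 4KO against 2KO (adjusted p = 1.14e-06). For 2KO against Col0 it was −0.41 ± 0.11 (adjusted p = 0.0208), a call lost without 2KO margin 1, 2KO margin 2, Col0 margin 2 or Col0 margin 3 (adjusted p = 0.0508 to 0.0945).

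In the center PIF7 had 16.4, 22.3 and 16.1 CPM in 4KO, 21.8, 28.3 and 30.2 CPM in 2KO, and 28.6, 29.1 and 24.4 CPM in Col0. 4KO lay below Col0 in every library, while 2KO overlapped both and differed from Col0 by −0.02 ± 0.13 (adjusted p = 0.961). The fold change was −0.56 ± 0.13 for 4KO against Col0 (adjusted p = 0.0023). For 4KO against 2KO it was −0.54 ± 0.13 (adjusted p = 0.0136). That call was lost without 4KO center 1, 4KO center 3, 2KO center 2 or 2KO center 3 (adjusted p = 0.0503 to 0.103), and with only the libraries of these 2 groups in the fit (0.051).

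PIF7 was also the one gene of the 8 tested that passed the test between margin and center of Col0 without the block, at 53.9 ± 0.490 CPM in the margin and 27.4 ± 2.60 CPM in the center (log2 fold change 0.98 ± 0.12, adjusted p = 1.06e-05). In 2KO the difference was 0.59 ± 0.12 (adjusted p = 0.00393), and in 4KO it was 0.01 ± 0.13 (adjusted p = 0.962). The exons of PIF7 share 318 bp with AT5G61260 on the other strand. The strand of counting is not stated, so reads of the shared stretch cannot be assigned with certainty. AT5G61260 itself averaged 0.518 to 1.10 CPM in the 6 groups. The other 9 genes overlap no other gene in the RefSeq annotation.

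PIF3, which acts mainly in the dark-grown seedling, was the least abundant of the 4 PIF genes. Its group means lay between 9.18 ± 1.01 CPM in the 4KO center and 7.49 ± 1.03 CPM in the 2KO margin (SD, n = 3). No comparison passed the test, and the 9 log2 fold changes between 2 groups lay between −0.15 and 0.25. For 4KO against Col0 the interval was −0.07 to 0.44 in the margin and −0.04 to 0.46 in the center.

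**Figure D2:**
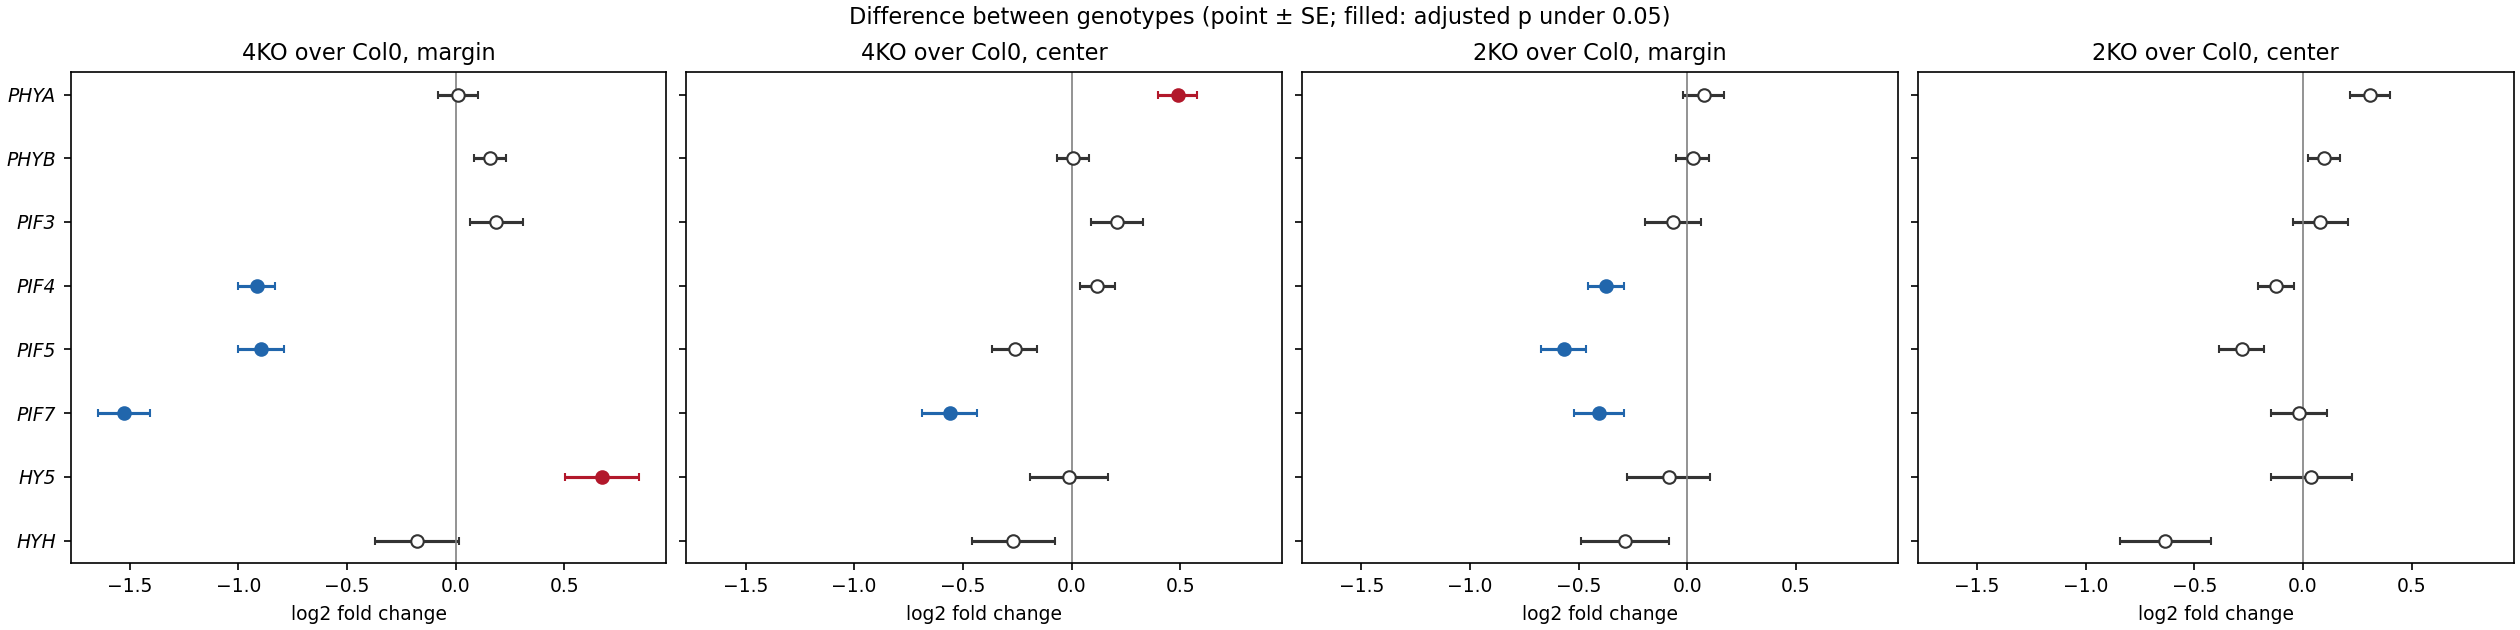
Log2 fold change (x axis; point ± SE from the model over all 18 libraries, 3 per group) of the 8 tested genes (y axis) for 4KO over Col0 and 2KO over Col0 in margin and center; filled points passed an adjusted p of 0.05. In the margin PIF4, PIF5 and PIF7 lie left of 0 in both mutants (−0.92, −0.90 and −1.53 in 4KO, −0.37, −0.57 and −0.41 in 2KO), and HY5 lies right of it in 4KO (0.67).

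HFR1 and PIL1, the brakes on PIF activity, had few reads in every library, fewer than 14 each. PIL1, whose transcript is a classical early marker of shade, had 6, 13 and 10 reads in the 4KO center, 3, 0 and 2 reads in the 2KO center, and 2, 3 and 3 reads in the Col0 center. 4KO lay above both other genotypes there. The ratio of 4KO to Col0, scaled for depth, was 3.05 with a 95% interval of 1.36 to 7.73 that covers counting error only. In the margin PIL1 had 2, 3 and 3 reads in 4KO, 2, 1 and 0 in 2KO, and 0, 0 and 1 in Col0.

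Without the filter on low counts, 23814 loci were tested and 22.5% of them were called for 4KO against Col0 in the center. PIL1 was among them, at a log2 fold change of 1.59 ± 0.59 (adjusted p = 0.0496). For 4KO against 2KO in the center PIL1 stood at 2.04 ± 0.66 and did not pass (adjusted p = 0.0628). For margin against center of 4KO, where 18.8% of loci were called, PIL1 stood at −1.95 ± 0.58 (adjusted p = 0.0152). HFR1 had 11, 9 and 10 reads in the 4KO margin, 0, 5 and 5 in the 2KO margin, and 0, 1 and 6 in the Col0 margin. The ratio of 4KO to Col0 was 2.79 with a counting interval of 1.20 to 7.51, and without the filter the adjusted p was 0.127, so the difference did not pass the test.

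HY5 had 6.50, 7.86 and 9.99 CPM in the 4KO margin, 5.45, 4.05 and 4.70 CPM in the 2KO margin, and 5.16, 5.13 and 4.88 CPM in the Col0 margin. All 3 libraries of the 4KO margin lay above every other library of the study, and the highest of them was replicate 3. HY5 rose in the 4KO margin against Col0 by 0.67 ± 0.17 on the log2 scale (adjusted p = 0.00313) and against 2KO by 0.76 ± 0.17 (adjusted p = 0.00174). For 2KO against Col0 the value was −0.09 ± 0.19 (adjusted p = 0.84).

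In the center HY5 had 4.97, 4.80 and 5.98 CPM in 4KO, 5.24, 5.47 and 5.41 CPM in 2KO, and 4.49, 5.08 and 6.13 CPM in Col0, and the groups overlapped. The differences there were −0.01 for 4KO against Col0, 0.04 for 2KO against Col0 and −0.05 for 4KO against 2KO, and the margin minus center values were −0.17 in 2KO and −0.05 in Col0, none of them past the test. Within 4KO the margin was above the center by 0.63 ± 0.16 (adjusted p = 0.00587), which was lost without 4KO margin 3 (0.46, adjusted p = 0.0555). The margin minus center difference of 4KO minus that of Col0 was 0.68 ± 0.25, with an adjusted p of 0.0637 without the pool block and 0.0322 with it.

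HYH, which overlaps HY5 in function, did not follow it. Its group means were 8.69 ± 0.271 CPM in the 4KO margin, 8.36 ± 0.708 CPM in the 4KO center, 8.43 ± 2.81 CPM in the 2KO margin, 6.34 ± 1.61 CPM in the 2KO center, 9.79 ± 1.46 CPM in the Col0 margin and 10.2 ± 1.51 CPM in the Col0 center (SD, n = 3). The 2KO center libraries, at 5.73, 5.14 and 8.17 CPM, lay below the Col0 center libraries, at 10.4, 11.5 and 8.53 CPM. That difference was −0.63 ± 0.21 (adjusted p = 0.0775), and it passed the test without 2KO center 3 (−0.90, adjusted p = 0.031). Over the 9 comparisons between 2 groups the log2 fold change of HYH lay between −0.63 and 0.37, the upper value for 4KO against 2KO in the center.

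Of the 8 genes tested, 4 were called for 4KO against Col0 in the margin, where 43.9% of all loci were called, so that count is close to the background. For 2KO against Col0 in the margin it was 3 of 8, all lower, beside 14.1% of all loci called in either direction and 7.81% called lower. In the center 2 of 8 were called for 4KO against Col0, beside 31.1% of loci, and 0 of 8 for 2KO against Col0, beside 6.15%. Behind that count of 0 by the edgeR test were 3 genes with an unadjusted p under 0.05, PHYA, PIF5 and HYH. For 4KO against 2KO the counts were 4 of 8 in the margin, beside 25.8%, and 1 of 8 in the center, beside 7.93%.

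Between margin and center, 4 of 8 were called in 4KO (25.6% of all loci), 1 of 8 in 2KO (7.51%) and 1 of 8 in Col0 (11.4%). Once the pool was blocked, 3 of 8 were called in 2KO (17.1% of loci), PHYA, PIF4 and PIF7, and 2 of 8 in Col0 (21.6%), PIF5 and PIF7. The margin minus center difference of 4KO differed from that of Col0 in 4 of 8 genes (17.2% of all loci), PHYA, PIF4, PIF5 and PIF7, each more negative in 4KO. For 2KO minus Col0 it was 0 of 8 (0.439%), with 2 genes at an unadjusted p under 0.05. Once the pool was blocked it was 3 of 8 (7.58%): PIF4 at −0.25 (adjusted p = 0.048), PIF5 at −0.27 (0.0384) and PIF7 at −0.36 (0.0475).

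**Figure D3:**
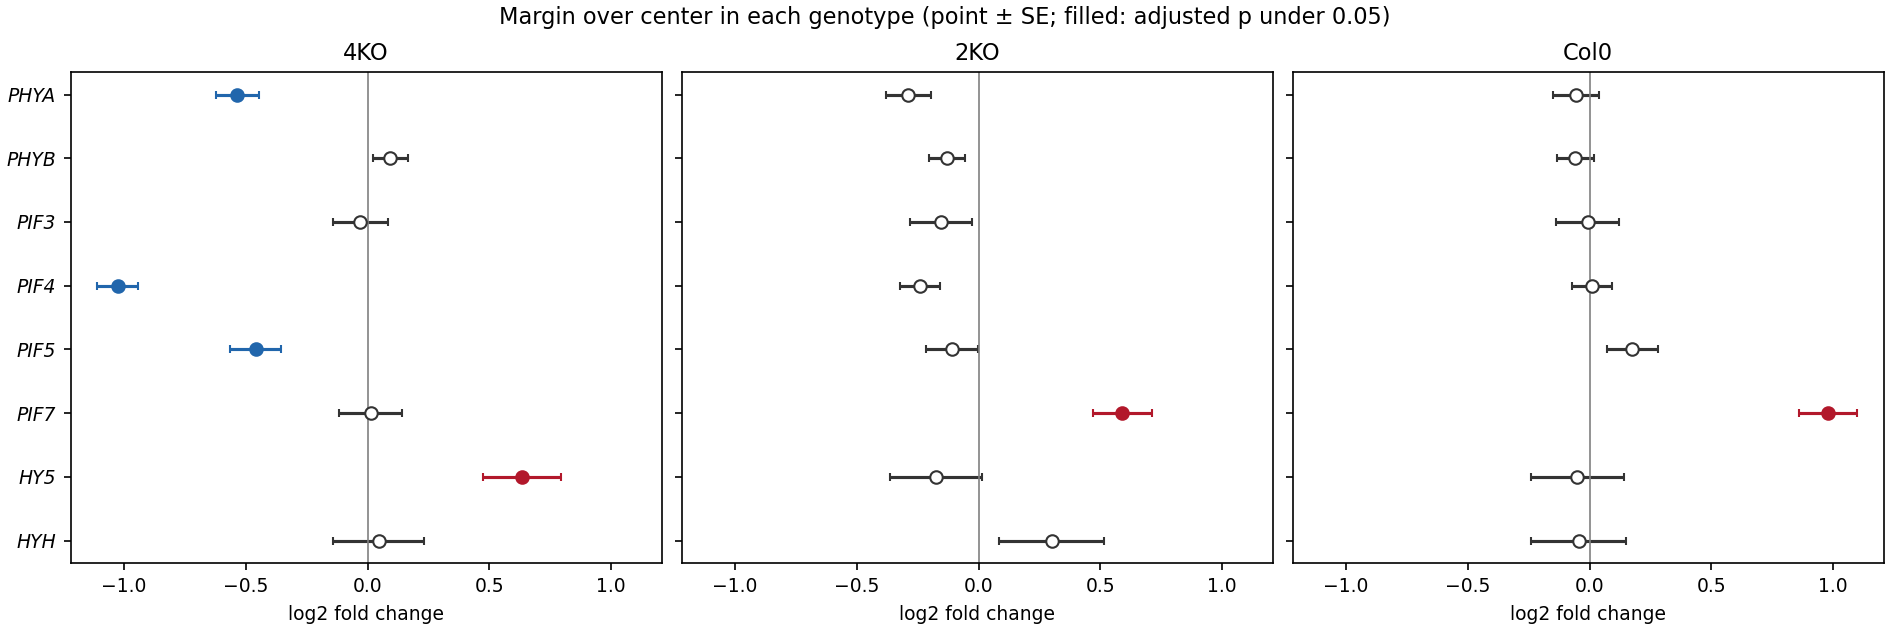
Log2 fold change of margin over center (x axis; point ± SE, 3 libraries per group, no block) of the 8 tested genes (y axis) in 4KO, 2KO and Col0; filled points passed an adjusted p of 0.05. PIF7 lies at 0.01 in 4KO, 0.59 in 2KO and 0.98 in Col0, and PIF4 at −1.03 in 4KO, −0.24 in 2KO and 0.01 in Col0.

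Cell type markers moved in the same margin libraries, beside 43.9% of all loci called for 4KO against Col0. In the 4KO margin against the Col0 margin all 7 mesophyll markers fell, with a summed level of 38387 to 43649 CPM in 4KO libraries and 77213 to 83704 CPM in Col0 libraries. All 5 phloem markers fell (97.3 to 113 CPM in 4KO and 425 to 464 CPM in Col0), and 4 of 5 xylem markers fell (78.0 to 80.0 CPM in 4KO and 93.7 to 111 CPM in Col0). Of 5 guard cell markers 3 fell (77.4 to 85.7 CPM in 4KO and 139 to 172 CPM in Col0). Among genes of handling stress 3 of 6 tested fell (84.7 to 160 CPM in 4KO and 69.3 to 572 CPM in Col0). Both of these counts lay near the share of all loci. All 9 markers of dividing cells rose (373 to 434 CPM in 4KO and 131 to 140 CPM in Col0), as did all 3 epidermis markers (1189 to 1240 CPM in 4KO and 622 to 634 CPM in Col0). The rise of the epidermis sum was mainly that of PDF1 (717 CPM in 4KO and 221 CPM in Col0). FDH (368 and 302 CPM) and ATML1 (130 and 106 CPM) rose less. No marker of these lists was at 0 in either group. In a bulk piece of leaf, fewer cells of a type and less RNA per cell cannot be told apart, and the part of cell composition in the PIF and HY5 values was not tested.

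In the 2KO margin against the Col0 margin 14.1% of all loci were called. There 7 of 7 mesophyll and 4 of 5 phloem markers fell and 8 of 9 markers of dividing cells rose. Of the epidermis markers 1 of 3 rose (summed level 790 to 794 CPM in 2KO and 622 to 634 CPM in Col0), and 2 of 5 guard cell markers fell (117 to 137 CPM in 2KO and 139 to 172 CPM in Col0), while none of the 5 xylem markers passed the edgeR test. The mesophyll sum was 57823 to 62326 CPM in 2KO, the phloem sum 266 to 307 CPM and the sum of dividing cell markers 189 to 238 CPM. Between margin and center of 4KO 25.6% of all loci were called. In that margin 9 of 9 markers of dividing cells and 3 of 3 epidermis markers were higher, and 5 of 7 mesophyll and 5 of 5 xylem markers were lower. Of the phloem list SUC2 (−0.52 ± 0.11, adjusted p = 0.00152) and AHA3 (−0.32 ± 0.089, 0.0106) were lower and the rest did not pass. The guard cell markers did not pass the edgeR test there. In the center of 4KO against Col0, where PHYA rose and PIF7 fell, 31.1% of all loci were called. Of the xylem markers 5 of 5 rose (156 to 180 CPM in 4KO and 110 to 123 CPM in Col0), and 7 of 7 mesophyll markers fell (43935 to 55406 CPM in 4KO and 67022 to 68108 CPM in Col0). Of the phloem markers 4 of 5 fell there (125 to 153 CPM in 4KO and 250 to 276 CPM in Col0), as did 2 of 5 guard cell markers (73.4 to 92.1 CPM in 4KO and 104 to 107 CPM in Col0) and 1 of 9 markers of dividing cells, and 2 of 3 epidermis markers rose (769 to 863 CPM in 4KO and 660 to 697 CPM in Col0). The guard cell count lay near the share of all loci, and that of dividing cell markers lay below it. The part of all these markers in the PHYA and PIF7 values was not tested. Between margin and center of Col0, where PIF7 was higher in the margin, 11.4% of all loci were called. In that margin 4 of 5 phloem, 3 of 7 mesophyll and 3 of 5 guard cell markers were higher and 9 of 9 markers of dividing cells were lower. Lower there too were XCP1 of the xylem list (−0.58 ± 0.11, adjusted p = 0.00111) and PDF1 of the epidermis list (−0.43 ± 0.080, 0.00105). The rest of those lists did not pass. The phloem sum was 425 to 464 CPM in the Col0 margin and 250 to 276 CPM in the Col0 center, and the sum of dividing cell markers 131 to 140 CPM in the Col0 margin and 223 to 254 CPM in the Col0 center. Between margin and center of 2KO 7.51% of all loci were called. Of the xylem markers 4 of 5 were lower in the margin (95.9 to 105 CPM in the 2KO margin and 137 to 148 CPM in the 2KO center). There 3 of 5 guard cell markers (117 to 137 CPM in the 2KO margin and 88.9 to 103 CPM in the 2KO center), 1 of 5 phloem and 1 of 3 epidermis markers were higher in the margin, and of the mesophyll and dividing cell lists 0 of 7 and 0 of 9 passed the edgeR test. Their part in the PIF7, PHYA and PIF4 values of Col0 and 2KO was not tested.

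Clock genes differed between genotypes too, and PIF4 and PIF5 are known targets of the clock. For 4KO against Col0 in the margin 5 of 10 clock genes rose and 3 fell, beside 43.9% of all loci called. The evening regulator PRR5 had 57.8 ± 5.51 CPM in 4KO and 16.8 ± 0.787 CPM in Col0, and TOC1, of the same family, had 59.3 ± 10.7 CPM in 4KO and 22.2 ± 1.38 CPM in Col0. The morning genes PRR9 (5.81 ± 0.385 CPM in 4KO and 26.7 ± 2.68 CPM in Col0) and CCA1 (26.4 ± 4.02 CPM in 4KO and 45.8 ± 3.22 CPM in Col0) fell. In the center 7 rose and 1 fell, beside 31.1% of all loci, with PRR5 at 57.2 ± 13.3 CPM in 4KO and 15.4 ± 4.75 CPM in Col0. For 2KO against Col0, 6 rose and 3 fell in the margin, beside 14.1%, and 5 rose and 1 fell in the center, beside 6.15%. The part of clock phase in the PIF values was not tested.

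The neighbors of these genes in the light pathway were followed in lists of known members, whose counts stand beside 43.9% of all loci called for 4KO against Col0 in the margin and 31.1% in the center. Among 8 other photoreceptors, for 4KO against Col0 in the margin, 3 fell and 1 rose, a share close to that of all loci, with a median log2 fold change of −0.08, beside 0.03 over all loci. The blue light receptor genes CRY1 (102 ± 5.81 CPM in 4KO and 157 ± 8.14 CPM in Col0, adjusted p = 8.58e-07) and PHOT1 (209 CPM in 4KO and 296 CPM in Col0, log2 fold change −0.50 ± 0.057, adjusted p = 4.03e-07) fell, and the UV-B receptor gene UVR8 rose (126 ± 3.05 CPM in 4KO and 97.0 ± 6.64 CPM in Col0, adjusted p = 0.000278). In the center none of the 8 passed this edgeR test.

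Transcripts for 2 enzymes of the phytochrome chromophore fell in both pieces: HY1, a heme oxygenase, with a log2 fold change for 4KO against Col0 of −0.60 ± 0.062 in the margin (adjusted p = 1.23e-07) and −0.29 ± 0.062 in the center (0.00126), and HY2, the bilin reductase, with −0.32 ± 0.074 in the margin (0.00143) and −0.59 ± 0.075 in the center (6.25e-06). They were 2 of the 3 genes tested from that list of 5. PIF8 was called among the other 3 PIF genes: it fell in the 4KO margin (−0.68 ± 0.13, adjusted p = 0.000177) and rose in the 4KO center (0.34 ± 0.13, adjusted p = 0.0464).

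In the degradation machinery 4 of 9 genes fell and 2 rose for 4KO against Col0 in the margin, where 43.9% of all loci were called, and 0 fell and 1 rose in the center. The genes that fell included SPA1 (−0.45 ± 0.062, adjusted p = 5.17e-06) and SPA4 (−0.94 ± 0.15, adjusted p = 2.33e-05), whose products join COP1 in removing HY5, and those that rose were the ligase core genes DDB1A (0.30 ± 0.076) and CUL4 (0.15 ± 0.060). Of 5 DELLA genes, growth repressors that bind PIF proteins, 2 fell, GAI (−0.54 ± 0.093) and RGL1 (−0.69 ± 0.12). Of 4 genes for ligases of PIF turnover 1 rose, EBF1 (0.40 ± 0.076, adjusted p = 0.000218). The shares called in these last 2 lists lay below that of all loci. From 4 genes of PHYA import into the nucleus and of its transcription, 3 were tested and none passed in the margin or the center in this edgeR test.

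Of the BBX genes, a B-box family that includes partners of HY5, 8 of 13 tested were lower and 1 was higher in the 4KO margin against Col0, beside 43.9% of all loci called in either direction. Their median log2 fold change was −0.50, beside 0.03 over all loci. In the 4KO center 2 were lower and 2 higher, beside 31.1% of loci, with a median of −0.09. BBX16 had 8.09 CPM in 4KO and 26.5 CPM in Col0 (−1.69 ± 0.19, adjusted p = 3.38e-07), BBX28 had 24.1 CPM in 4KO and 55.0 CPM in Col0 (−1.19 ± 0.14, adjusted p = 6e-07), and BBX22 rose (0.27 ± 0.092, adjusted p = 0.0194). In the 2KO margin 6 fell and 1 rose against Col0, beside 14.1% of loci, with BBX16 at −1.15 ± 0.19 and BBX28 at −0.71 ± 0.14.

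Known shade and PIF targets gave 6 lower and 1 higher of 11 tested in the 4KO margin against Col0, beside 43.9% of all loci called, with a median of −0.83. PRE1, an HLH gene of cell elongation, had 1.43 ± 0.685 CPM in 4KO and 15.1 ± 2.75 CPM in Col0 (adjusted p = 6.83e-09), and HAT2, an HD-ZIP II gene, had 4.03 ± 0.515 CPM in 4KO and 17.0 ± 3.97 CPM in Col0 (adjusted p = 3.18e-08). ATHB4 rose (1.40 ± 0.35, adjusted p = 0.00263). In the center 4 of 11 fell and 1 rose, beside 31.1% of loci, with PRE1 at 1.45 ± 0.248 CPM in 4KO and 10.2 ± 1.93 CPM in Col0. In the 2KO margin 3 of 11 fell against Col0, beside 14.1% of loci, HAT2 (−0.91 ± 0.18), PAR1 (−0.60 ± 0.16) and PRE1 (−0.79 ± 0.22).

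Known HY5 targets gave 2 higher and 1 lower of 8 tested in the 4KO margin against Col0, near the 43.9% of all loci called there, with a median of 0.25. CHI, a flavonoid enzyme, had 22.7 ± 1.85 CPM in 4KO and 13.6 ± 1.70 CPM in Col0 (adjusted p = 1.15e-05), and ELIP1, an early light-induced protein of the chloroplast, had 15.5 ± 1.03 CPM in 4KO and 9.85 ± 3.87 CPM in Col0 (adjusted p = 0.02). NIA2, a nitrate reductase, fell (−1.10 ± 0.25, adjusted p = 0.00109). Between margin and center of 4KO 4 of 8 were higher in the margin and none was lower, beside 25.6% of all loci called, with FLS1 at 0.78 ± 0.11 (adjusted p = 1.7e-05) and CHI at 0.71 ± 0.10 (adjusted p = 2.2e-05). In the 4KO center against Col0, where HY5 was at −0.01, 1 of 8 fell, FLS1 (−0.57 ± 0.11, adjusted p = 0.000542). That count lay below the share of all loci called there, 31.1%. In the 2KO center, where HY5 was at 0.04, 3 of 8 fell beside 6.15% of all loci, ELIP1 (−1.26 ± 0.29, adjusted p = 0.0133), FLS1 (−0.45 ± 0.11, 0.021) and CHI (−0.42 ± 0.12, 0.0333). In the 2KO margin 1 of 8 fell, ELIP2 (−1.43 ± 0.44, adjusted p = 0.0362), near the 14.1% of all loci called there.

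**Figure D4:**
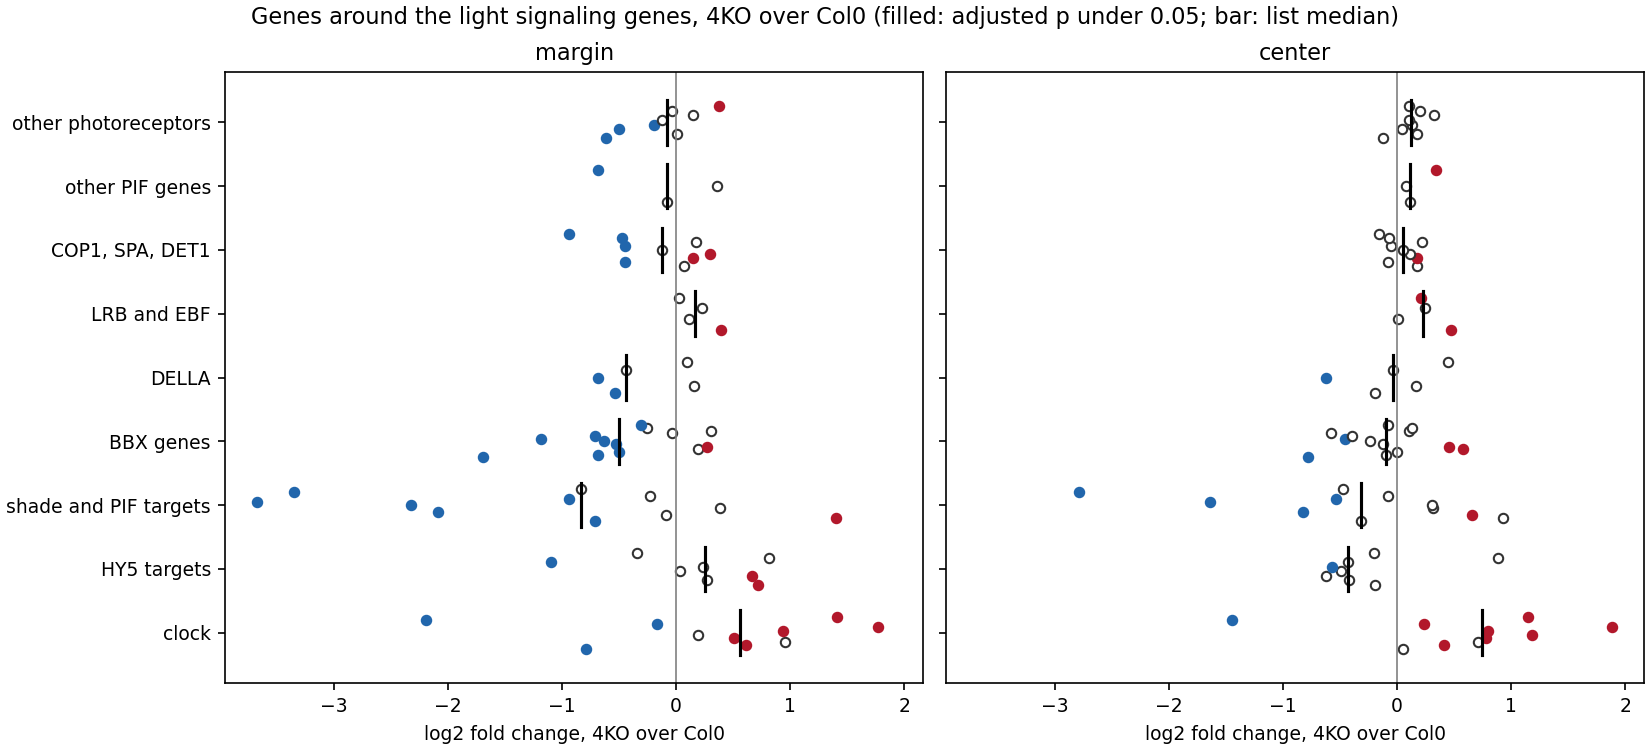
Log2 fold change of 4KO over Col0 (x axis) for each tested gene of 9 lists of the light pathway and the clock (y axis), in margin and center; filled points passed an adjusted p of 0.05 and the black bars are list medians. In the margin the medians of the shade and PIF target list (−0.83) and the BBX list (−0.50) lie left of 0, and that of the clock list (0.56) lies right of it.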

How the data were processed

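The labels' protocols name TRIzol for total RNA, a DNase step and the TruSeq RNA kit. Per the submitters' processing notes the tools were HTSeq 0.7.2, TopHat2 2.0.13 and edgeR 3.8.6, on TAIR10; the options, the strand setting and the release of the gene models were not given in sources used here. The authors' deposited table holds raw read counts of 33602 loci in 18 libraries. Its 5 summary rows, among them reads outside genes (0.497% to 1.15% of a library) and ambiguous reads (1.38% to 1.57%), were set aside.

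Here the counts were tested with edgeR 4.0.16 (R 4.3.3): TMM scaling, filterByExpr by group (17763 loci), 1 mean for each of the 6 groups in 1 fit, the quasi-likelihood F test, and Benjamini-Hochberg adjustment over all loci tested, with calls at an adjusted p under 0.05. Each SE is the log2 fold change divided by the root of F. The procedure was tested on simulated data. By the naming rule all 10 genes are reported, called or not, with results that did not pass given in part as ranges and counts; from each other list up to 2 genes in each direction, those with the lowest adjusted p among the called, are named, and those that complete a count of 3. The genes and lists were chosen with earlier results of these data known. Comparisons against Col0 share the Col0 libraries. Intervals of reads cover counting error only, and p-values without a block rest on the spread between libraries of the same group. For margin against center and the interactions, those p-values do not use the pairing of pieces from the same pool.

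Margin and center libraries with the same number correlated at 0.196 to 0.384 after group means were removed (9 pairs, 5000 genes), against −0.238 to 0.0383 for other numbers (18 pairs), and the labels describe both pieces as portions of leaf 5 of the pooled plants, so the leaf pool served as a block in an alternative fit. Across genotypes the same number gave −0.233 to 0.173. Other alternatives were DESeq2 1.42.0, upper quartile scaling, no filter, only the libraries compared, and leaving out libraries. Names, coding lengths, overlaps and promoters came from RefSeq TAIR10.1; 97.7% of loci matched.

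Genes named here that overlap another gene, so that their reads are uncertain without strand, are PIF7, TCP3, HY2, SPA4, XCP1, EXPA7, GAUT4, emb2410, MT3, 3xHMG-box1 and SOUL-1.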

Additional observations from a re-analysis of the deposited data

Results flagged for a closer look

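For 4 of the 8 genes tested, the difference between margin and center was not the same in 4KO as in Col0, by a test of the difference itself (edgeR quasi-likelihood test of the interaction, adjusted over all loci). The log2 value of 4KO minus Col0 was −1.03 ± 0.12 (SE) for PIF4 (adjusted p = 4.01e-06), −0.97 ± 0.18 for PIF7 (adjusted p = 0.000716), −0.63 ± 0.15 for PIF5 (adjusted p = 0.005) and −0.48 ± 0.13 for PHYA (adjusted p = 0.0138). The margin over center ratios of single leaf pools come from the same counts as that test, which picked these genes. They therefore show the size of the differences and are no separate support. These ratios did not overlap between 4KO and Col0 for any of these genes, which a call by that test makes likely. The share of all loci without such overlap was not counted. For PIF7 they ranged from −0.19 to 0.27 in 4KO and from 0.90 to 1.15 in Col0, and for PHYA from −0.57 to −0.52 in 4KO and from −0.09 to −0.01 in Col0. For PIF4 the pools of 4KO lay between −1.17 and −0.94 and those of Col0 between −0.12 and 0.09. For PIF5 the pools of 4KO lay between −0.59 and −0.23 and those of Col0 between 0.09 and 0.25. The same interaction test called 17.2% of all loci. Markers of dividing cells, mesophyll, phloem and xylem passed it in all of their 9, 7, 5 and 5 genes. Those of dividing cells were more positive in 4KO and the others more negative. Only some of the guard cell and epidermis markers passed it, and none of the tested genes of handling stress did. The part of all these markers in the 4 values was not tested.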

How the results depend on the processing

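Recomputed under the alternative settings, the 24 calls on the 8 genes gave 336 values, of which 322 kept the call, 14 lost it and 0 turned the direction round. The calls lost are named beside their results. These values come from fits that share libraries, so they are not independent checks. Of 904 such values for the 64 results not called, 19 passed the test. The leaf pool as a block, which the pairing of margin and center libraries allows, moved the loci called between margin and center from 2030 without it to 3836 with it in Col0 and from 1334 to 3041 in 2KO, and the genes called here to 2 in Col0 and 3 in 2KO. It moved the loci called for the interaction of 4KO with Col0 to 4996, against 3047 without it, and of 2KO with Col0 to 1347, against 78, with 3 genes called here. Blocking on the replicate number across genotypes, which share only a number, gave 1 gene for 2KO against Col0 in the center, PHYA (adjusted p = 0.0463). No filter also gave 1 (PHYA, 0.036), and only the libraries compared gave 1 (PHYA, 0.0396); PIF5 of the 4KO center passed under 4 alternatives named beside it, the number block among them (0.0279).

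With only the libraries compared, loci called were 686 for 2KO against Col0 in the center, 752 for 4KO against 2KO in the center (0 of the genes here), 777 for margin against center of 2KO and 31 for the interaction of 2KO. That last count was 131 with DESeq2 and 175 with no filter. Leaving out 1 library gave 463 to 1116 loci (0 to 2 genes) for 2KO against Col0 in the center, against 1093 with all, with 668 without 2KO center 1, 625 without 2KO center 2 and the lowest without Col0 center 1. In the margin it gave 1527 to 2366 (2 to 3 genes), against 2513, with the lowest without 2KO margin 1. For 4KO against 2KO in the center it gave 846 to 1047 (0 to 1 genes), against 1409, with 875 without 2KO center 3 and the lowest without 4KO center 3. For margin against center of 2KO it gave 844 to 1156 (1 gene), against 1334, with 873 without 2KO center 2 and the lowest without 2KO margin 1. For the interaction of 2KO it gave 19 to 211 (0 genes), against 78, with the lowest without 2KO center 2, the highest without 2KO center 1, and 35 to 47 without 2KO center 3, 2KO margin 1 or 2, Col0 center 3 or Col0 margin 1 or 3. The cause of these moves was not tested. Where libraries were left out, their smaller number was not separated from which of them were missing. HY5, PIF3 and HYH had 27 to 126 reads per library, and HFR1 and PIL1 0 to 13, which limits what can be seen of them.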

Other observations

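Over the 18 libraries, PIF4 and PIF5 had a Pearson correlation of 0.78 in log2 CPM, PIF5 and PIF7 one of 0.64, and PIF4 and PIF7 one of 0.29. For PIF4 and HY5 it was −0.69. With group means removed these values were 0.51, 0.80, 0.51 and −0.20, in the same order. These are descriptions over libraries that share groups, depth and genotype. Among 6527 loci with a symbol and at least 5 CPM, the patterns most like PIF4 were those of the blue light receptor gene PHOT1 (r = 0.96) and CYCP4;1 (0.96), and those most like PIF5 were RPT2 (0.95) and TDT (0.94). PIF7 was most like FAO3 (0.96) and MT3 (0.96), and PHYA most like GAUT4 (0.91) and POM1 (0.90). The closest patterns to HY5 were RPN10 (0.83) and 3xHMG-box1 (0.81), and to HYH they were SOUL-1 (0.84) and C4H (0.81). For PIF3 they were PRAF1 (0.85) and emb2410 (0.84), and for PHYB, which varied least, PAE2 (0.74) and PAF1 (0.73).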
